A study of Mus musculus with 12 samples.

Results

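Secreted guidance cues and a receptor for them were followed here: the class 3 semaphorins Sema3a, Sema3c, Sema3d and Sema3e, and Plxnd1, which encodes plexin D1. They were taken as the rows of the count table whose mouse Ensembl identifier pairs with these symbols, which gave 5 of 31078 genes, and all 5 passed the filter on low counts that left 9519 genes for testing. RNA was sequenced from lungs dissected from mouse embryos of embryonic day 12.5 (E12.5), and the left and right lung were kept apart. All embryos were on a C57BL/6 background and came from matings of males and females that carried an Intu knockout allele. Intu encodes a protein needed to build the primary cilium, the organelle through which Hedgehog signals are read. Crossing genotype (wild type or Intu knockout) with side gave 4 groups, with 3 numbered libraries each. What the allele removes from Intu is not given in the labels, and nothing in them restricts the knockout to a tissue. Whether libraries of a group are different embryos is not stated either, and the p-values therefore cover only the spread among these libraries, which may be technical.

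Class 3 semaphorins are secreted proteins that steer growing axons, migrating neural crest cells and sprouting blood vessels. Sema3a binds neuropilin 1 and signals through A-type plexins, by which it repels axons, and in the fetal lung it is known for its effects on branching and on the distal airspaces. Sema3c acts through both neuropilins, with A-type plexins or plexin D1, and is best known for guiding the neural crest cells that divide the outflow tract of the heart. Sema3d guides endothelial cells as the pulmonary veins join the heart. Sema3e is the exception in the family, because it binds plexin D1 directly and needs no neuropilin to repel endothelial cells. Plexin D1 is made mainly by endothelial cells, and without it vessels grow into the wrong places. The class 3 genes Sema3b, Sema3f and Sema3g and the receptor gene Nrp1 were not analysed here.

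The 4 semaphorin genes lie on chromosome 5 within 5.35 Mb, and all are read from the plus strand (GRCm38). From low to high coordinates, Sema3d (ENSMUSG00000040254) spans 12383385 to 12588948, Sema3a (ENSMUSG00000028883) 13125414 to 13602565, Sema3e (ENSMUSG00000063531) 14025276 to 14256689 and Sema3c (ENSMUSG00000028780) 17574281 to 17730268. Sema3d ends 0.536 Mb before Sema3a starts, Sema3a ends 0.423 Mb before Sema3e starts, and 3.32 Mb separate Sema3e from Sema3c. Plxnd1 (ENSMUSG00000030123) lies on the minus strand of chromosome 6, from 115954811 to 115995005. Unnamed transcript models overlap Sema3a (4 models), Sema3d (2) and Sema3e (3), and the largest total count of any of them over the 12 libraries was 57. The reads that the semaphorins may have lost to these overlaps cannot be told from that count.

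The promoters of the 3 semaphorins on which the comparisons below turn are printed to show how unlike they are. Sema3a was called between the genotypes, and Sema3c was called between the sides only in edgeR fits with pairs. Whether Sema3e was called between the genotypes depended on the libraries kept and on the filter. RefSeq (GRCm38.p6) gave the 250 bases before and 50 bases after the start for all 5 genes. Capitals mark matches, on either strand, to 1 of 5 motifs: GACCACCCA (bound by GLI factors), ACGTG (the core of a hypoxia response element), CACGTG (an E-box, which holds ACGTG on both strands), GGGCGG (a GC box) and TATAAA. Each sequence reads 5′ to 3′ on the plus strand of chromosome 5: Sema3a is chr5:13396534-13396833, Sema3c is chr5:17574566-17574865 and Sema3e is chr5:14025026-14025325.
Sema3a promoter: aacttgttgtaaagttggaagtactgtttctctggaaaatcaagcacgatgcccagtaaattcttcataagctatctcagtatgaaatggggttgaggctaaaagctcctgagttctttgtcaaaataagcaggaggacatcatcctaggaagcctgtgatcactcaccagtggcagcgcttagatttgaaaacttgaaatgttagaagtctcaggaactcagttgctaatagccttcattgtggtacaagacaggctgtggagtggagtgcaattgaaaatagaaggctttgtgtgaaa
Sema3c promoter: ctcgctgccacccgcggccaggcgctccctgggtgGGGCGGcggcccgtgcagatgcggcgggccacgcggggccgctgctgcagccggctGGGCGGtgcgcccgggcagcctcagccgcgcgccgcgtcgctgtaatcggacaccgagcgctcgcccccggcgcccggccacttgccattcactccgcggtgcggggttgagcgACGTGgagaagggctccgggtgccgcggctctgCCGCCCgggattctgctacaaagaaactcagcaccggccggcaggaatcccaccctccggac
Sema3e promoter: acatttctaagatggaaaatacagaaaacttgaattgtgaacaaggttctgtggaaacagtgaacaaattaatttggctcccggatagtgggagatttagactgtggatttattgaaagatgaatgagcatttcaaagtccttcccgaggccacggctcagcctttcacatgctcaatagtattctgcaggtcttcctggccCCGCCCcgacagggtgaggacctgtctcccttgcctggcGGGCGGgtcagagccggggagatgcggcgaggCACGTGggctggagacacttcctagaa
The Sema3a window held 2 CpG dinucleotides and 41.3% G or C, and none of the 5 motifs matched. The RefSeq start of Sema3a lies 271 kb inside the gene as the count table bounds it, so other starts are not in this window. The Sema3c window, in contrast, held 42 CpG dinucleotides and 75.7% G or C, with GGGCGG at positions 36, 92 and 239 and ACGTG at position 206, counted from the first base. The Sema3e window held 11 CpG dinucleotides and 50.7% G or C, with CACGTG at position 274 and GGGCGG at positions 203 and 242. The median of 32817 promoters was 7 CpG dinucleotides and 52.7% G or C. Sema3d had 8 CpG dinucleotides and no match, and Plxnd1 had 23 and GGGCGG at positions 228 and 266. Among all promoters, GACCACCCA occurred in 0.253%, ACGTG in 19.6%, CACGTG in 7.15%, GGGCGG in 35.6% and TATAAA in 13.6%. A match here is a description of the letters and not a binding site.

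The libraries held 10290103 to 10753386 counts on the part of the genome analysed, and levels are given as normalised CPM, counts scaled to a common library size. The 5 genes had 375 to 11566 counts in a library. The targeted gene separated the genotypes poorly: the group means of Intu were 31.2 CPM (left) and 31.8 CPM (right) in wild type, and 26.9 CPM (left) and 29.5 CPM (right) in the knockout (log2 difference -0.16, SE 0.06, edgeR adjusted p = 0.162). Gli1, a Hedgehog target gene that serves as a second check of the labels, was at 344.6 CPM or more in wild type and at 185.5 CPM or less in the knockout. As the Intu count does not check the label by itself, "knockout" below means the libraries labelled so. Markers of lung mesenchyme were abundant in all libraries, at a summed 6301 to 7960 CPM for 6 genes. The collagen genes Col3a1 and Col1a2 made up most of that sum, at group means of 2894 to 3352 and 2487 to 2976 CPM. Of the 11 lung epithelium markers listed only 2, Elf3 and Sox2, were in the table, and they summed to 41.22 to 60.31 CPM. These sums therefore do not compare the amounts of the 2 tissues. Fewer cells of a type and less RNA per cell cannot be told apart in these whole lungs.

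Per kilobase of exon, plexin D1 was by far the most abundant of the 5 transcripts, at 140 CPM per kb (group means 136 to 142), a level above 96.7% of tested genes. Sema3a followed at 18.2 CPM per kb (16.0 to 21.2), then Sema3d at 13.6 (11.4 to 14.8), Sema3c at 12.6 (11.6 to 13.8) and Sema3e at 5.58 (4.99 to 6.46). Sema3d and Sema3c are neighbours in this order whose ranges of group means overlap, and their order was the reverse in wild-type right lungs. Sema3a was above Sema3d in every wild-type library but was below it in the left and right knockout libraries number 1. The plot of levels per kilobase places the 5 genes among the other semaphorins and plexins of the table.

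Sema3a was the one ligand of the 4 called between the genotypes. Wild-type left lungs had 295.4, 301.1 and 284.7 CPM and wild-type right lungs 283.2, 265.2 and 253.0 CPM. Knockout left lungs had 209.9, 218.4 and 239.3 CPM and knockout right lungs 222.5, 225.0 and 227.8 CPM. All 6 knockout libraries were below all 6 wild-type libraries, with the highest knockout value of 239.3 CPM under the lowest wild-type value of 253.0 CPM. Over both sides, Sema3a fell by 0.32 on the log2 scale in the knockout (SE 0.04, edgeR adjusted p = 0.0003596), a change of -20.1%. It was 1 of the 5 genes called, against 5.7% of all tested genes called in this comparison (3.62% as lower). Among all tested genes, 2.65% had all knockout libraries below all wild-type ones.

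Within the left lungs Sema3a fell by 0.40 (SE 0.06, edgeR adjusted p = 0.004783), from 293.7 ± 8.36 to 222.5 ± 15.1 CPM (SD, n = 3 libraries each), and 1.18% of all tested genes were called there. Within the right lungs it went from 267.1 ± 15.2 to 225.1 ± 2.67 CPM, a log2 difference of -0.25 (SE 0.06) that missed the threshold (edgeR adjusted p = 0.05468), beside 1.51% of all tested genes called. The 3 knockout libraries were below the 3 wild-type libraries on each side, as were 8.26% of all tested genes in left and 9.71% in right lungs. DESeq2 called the difference in right lungs (adjusted p = 0.00973), where it called 221 genes in all against 144 in edgeR. By limma-voom Sema3a was not called there (adjusted p = 0.0565). With the left and right counts of a number summed, which leaves 3 values per genotype, the difference in edgeR was -0.32 (SE 0.05, adjusted p = 0.0195, beside 1.46% of genes called). That call was lost when wild-type pair 1, wild-type pair 2 or knockout pair 3 was left out (adjusted p = 0.071, 0.094 and 0.0569).

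**Figure D1:**
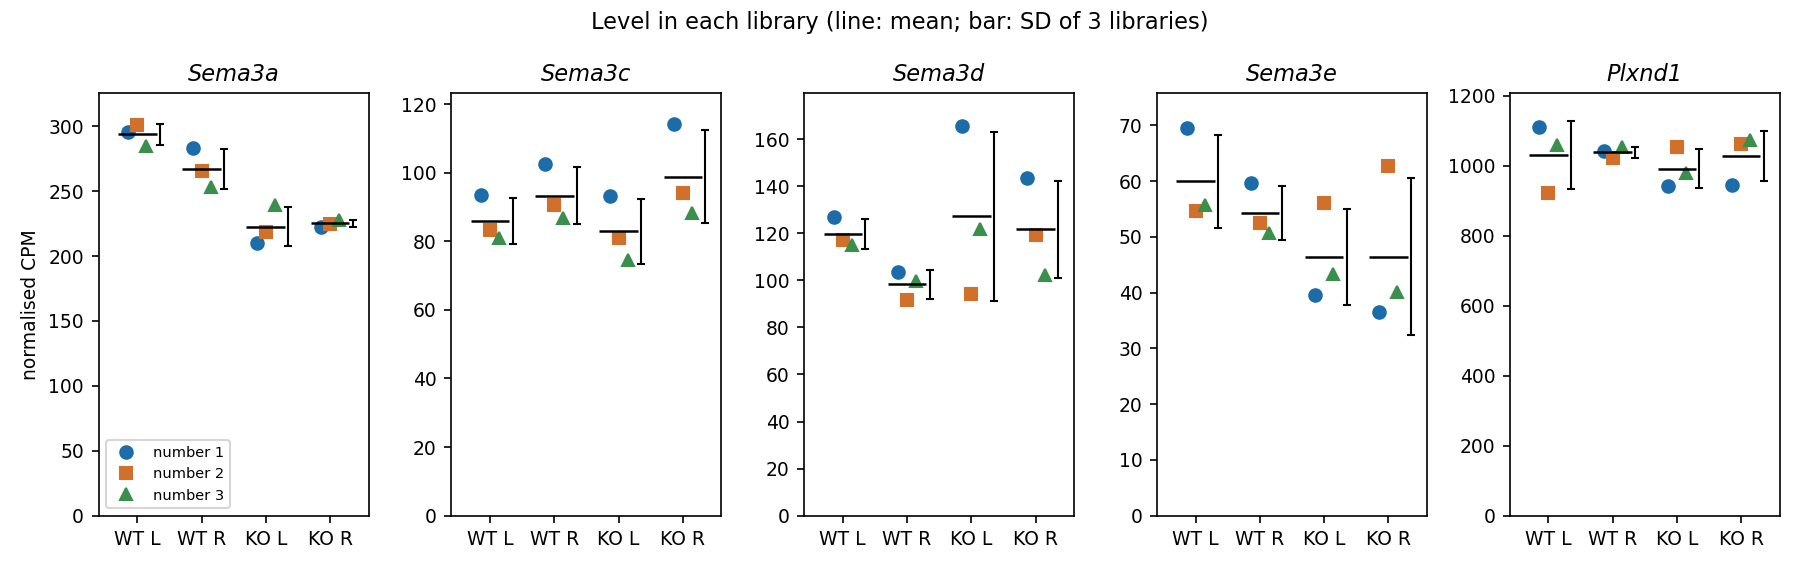
Normalised CPM of the 5 genes in each of the 12 libraries (WT, wild type; KO, knockout; L, left; R, right), with marker shapes for the library number, the group mean as a line and the SD of 3 libraries as a bar. Every knockout value of Sema3a lies below every wild-type value, and the knockout libraries number 2 stand above numbers 1 and 3 for Sema3e.

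Sema3e was lower in 4 of the 6 knockout libraries and not in the other 2. Wild-type left lungs had 69.56, 54.67 and 55.64 CPM and wild-type right lungs 59.71, 52.52 and 50.62 CPM. Knockout left lungs had 39.61, 56.07 and 43.32 CPM and knockout right lungs 36.61, 62.69 and 40.11 CPM. The knockout libraries number 2, left and right, fell among the wild-type values, and the other 4 knockout libraries were below all 6 wild-type libraries. Over all libraries the log2 difference was -0.30 (SE 0.13, edgeR adjusted p = 0.207), with -0.37 (SE 0.18) in left and -0.22 (SE 0.18) in right lungs, and none of these passed. Without the knockout libraries number 2 the difference was -0.516 (SE 0.08, edgeR adjusted p = 0.00238), and without only the right one of them it was -0.434 (adjusted p = 0.0224). Without both knockout libraries number 1 it was -0.1706 (adjusted p = 0.471), and without both wild-type libraries number 1 it was -0.2005 (adjusted p = 0.526). With left and right counts summed, edgeR gave -0.30 (SE 0.16, adjusted p = 0.469) over all pairs. Without knockout pair 2 the summed difference was -0.517 (SE 0.10, adjusted p = 0.0442). The knockout libraries number 2 held the most Pdk1, a pyruvate dehydrogenase kinase gene, at 192.9 and 191.8 CPM. The other knockout libraries had 82.25 to 109.6 CPM and the wild-type libraries 71.28 to 91.15 CPM. What that difference has to do with Sema3e was not tested.

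Sema3d varied widely among the knockout libraries. Wild-type left lungs had 126.9, 117.3 and 114.9 CPM and wild-type right lungs 103.6, 91.71 and 99.51 CPM. Knockout left lungs had 165.5, 94.22 and 122.0 CPM and knockout right lungs 143.4, 119.3 and 102.2 CPM. The genotypes overlapped on both sides, and the SD in knockout left lungs was 35.9 CPM against 6.35 CPM in wild type. The log2 difference of 0.20 (SE 0.11, edgeR adjusted p = 0.3588) had an interval of 2 SE from -0.03 to 0.42. It was 0.31 (SE 0.16, adjusted p = 0.4332) in right lungs and 0.09 (SE 0.16, adjusted p = 0.9165) in left lungs. Without both knockout libraries number 1 the difference over both sides was 0.0163, and without the left one of them that in left lungs was -0.1423.

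Sema3c had much the same levels in the genotypes. Wild-type left lungs had 93.58, 83.38 and 80.98 CPM and wild-type right lungs 102.6, 90.68 and 86.79 CPM. Knockout left lungs had 93.2, 80.9 and 74.61 CPM and knockout right lungs 114.1, 94.19 and 88.32 CPM. The ranges of the genotypes overlapped on both sides. Over both sides its log2 difference was 0.02 (SE 0.07, edgeR adjusted p = 0.9395), with an interval of 2 SE from -0.13 to 0.16.

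The receptor gene Plxnd1 did not pass the test in any comparison of the genotypes either. Wild-type left lungs had 1111, 923.5 and 1059 CPM and wild-type right lungs 1042, 1021 and 1053 CPM. Knockout left lungs had 941.8, 1053 and 980.2 CPM and knockout right lungs 945.1, 1062 and 1075 CPM. The genotypes overlapped on both sides, and the log2 difference of -0.04 (SE 0.05, edgeR adjusted p = 0.7483) had an interval of 2 SE from -0.14 to 0.06. Of the 8 endothelial markers tested, which label the cells where plexin D1 is mainly made, Sox18 rose (0.21, edgeR adjusted p = 0.02569) and none fell, with a median of -0.005. Of all tested genes 5.7% were called over both sides, and with the pairs summed Sox18 was not called (edgeR adjusted p = 0.165). The summed level of these markers was 1003 to 1101 CPM in wild-type left, 1044 to 1085 CPM in wild-type right, 980.7 to 1328 CPM in knockout left and 964.1 to 1273 CPM in knockout right lungs.

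**Figure D2:**
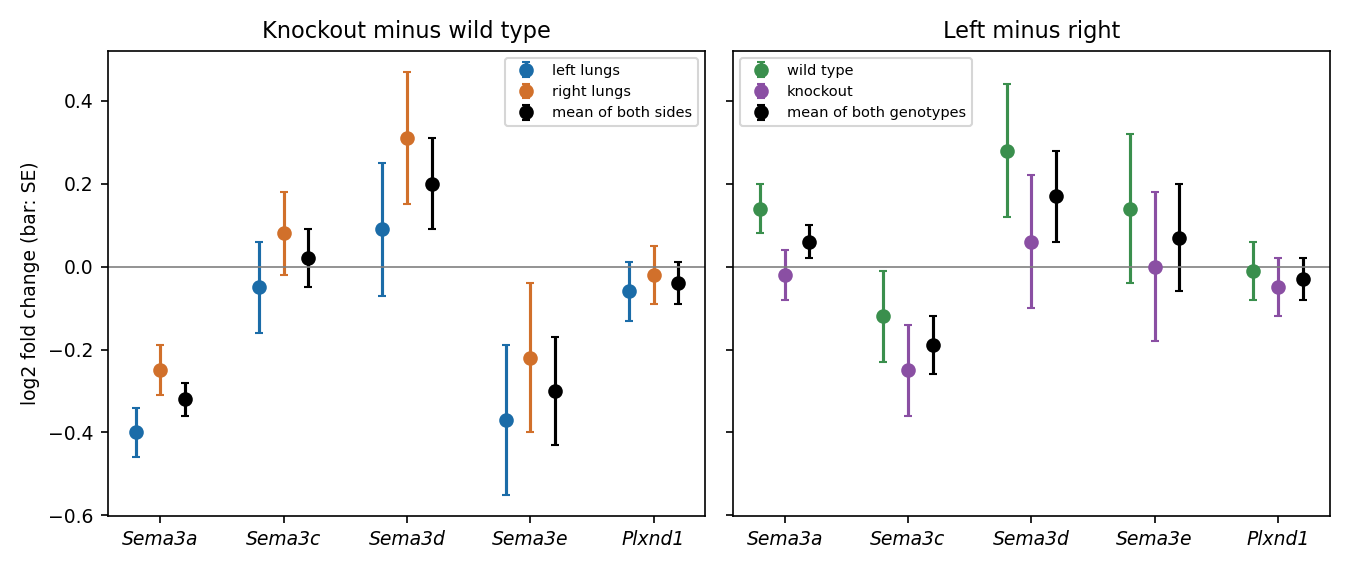
Log2 fold changes with their SE for the 5 genes: knockout minus wild type (mean of both sides, left, right) and left minus right (wild type, knockout), from the fit of all 12 libraries without pairs. Sema3a lies at -0.32 for the mean of both sides, -0.40 in left and -0.25 in right lungs, and Plxnd1 lies near 0 throughout.

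Markers of several other cell types differed between the genotypes along with Sema3a, in a comparison where 3.62% of all tested genes were called as lower. Neuronal markers fell in 6 of 7 tested genes, with a summed level of 33.14 to 60.21 CPM over the wild-type and 23.75 to 30.53 CPM over the knockout libraries. Smooth muscle markers fell in 5 of 5, from a summed 637.4 to 772.4 CPM to 283.2 to 334.3 CPM, and myeloid markers fell in 6 of 7, from 182.8 to 212.3 CPM to 124.2 to 156.1 CPM. Of the 6 lung mesenchyme markers, the collagen gene Col3a1 rose (adjusted p = 0.02368) and none fell. Elsewhere Pax7 (skeletal muscle, 3.42), Myl2 (cardiac muscle, 2.6) and Elf3 (lung epithelium, 0.54) were called as higher. Actc1 (cardiac muscle, -1.7) and Upk3b (mesothelium, -0.32) were called as lower. Pax7 and Myl2 had group means of 3.062 CPM or less. In the edgeR fit of summed pairs Pax7 (adjusted p = 0.0389) and Actc1 (0.0124) were still called, and Myl2 (0.131), Elf3 (0.206) and Upk3b (0.0905) were not. With the pairs summed, 4 neuronal, 4 smooth muscle (all but Des, adjusted p = 0.148) and 2 myeloid markers (Mrc1 and Laptm5) were still called as lower, and Col3a1 was not called (adjusted p = 0.17). No marker of these lists in the table was at 0 in every library, and their part in the level of Sema3a was not tested.

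The other receptors were measured beside plexin D1. Of the receptor genes on the list, 7 were in the table and tested, and edgeR called 0 between the genotypes (median 0.03, against 0.00362 for all tested genes). Of all tested genes it called 5.7%. Nrp2, the co-receptor neuropilin 2, differed by 0.03 on the log2 scale, and the A-type plexins Plxna1, Plxna3 and Plxna4 by -0.03, 0.08 and 0.08. Plxna2 differed by -0.24 (SE 0.07, edgeR adjusted p = 0.07315) and Plxnc1, a receptor for a membrane-anchored semaphorin, by 0.24 (SE 0.08, adjusted p = 0.09038). DESeq2 called both (adjusted p = 0.0333 and 0.0415), as did edgeR with no filter on low counts, where 1084 genes in all were called against 543. Neither was called by limma-voom (adjusted p = 0.0725 and 0.0846) or by edgeR with the pairs summed (adjusted p = 0.215 and 0.311). In edgeR, Plxna2 was also called without the left knockout library number 1 (adjusted p = 0.0489), and Plxnc1 without both wild-type libraries number 1 (adjusted p = 0.0394). None of the 6 semaphorins of classes 4 to 7 passed, which are membrane-bound members of the family, and the smallest p-values among them belonged to Sema6c (0.17, adjusted p = 0.171) and Sema4a (-0.23, adjusted p = 0.2803).

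Among 20 tested genes that carry semaphorin signals inside the cell, 2 fell and 0 rose (median -0.055). This stood beside 3.62% of all tested genes called as lower. Mical1, an enzyme that takes actin filaments apart downstream of plexins, fell by 0.27 (SE 0.04, edgeR adjusted p = 0.001694). Crmp1, a collapsin response mediator that binds tubulin, fell by 0.34 (SE 0.07, adjusted p = 0.01586), but with the pairs summed its adjusted p was 0.0668.

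Other cues for vessels and nerves gave a mixed picture. Of 15 tested genes for vascular guidance and growth, 1 rose and 3 fell (median -0.029), beside 5.7% of all tested genes called. Angpt2, the angiopoietin that loosens vessel walls, rose by 0.71 (SE 0.10, edgeR adjusted p = 0.0005983). Cxcl12, a chemokine that attracts endothelial and migrating progenitor cells, fell by 0.62 (SE 0.04, adjusted p = 2.228e-07). Efnb2, the ephrin that marks arteries, fell by 0.27 (SE 0.05, adjusted p = 0.005666) and Vegfc, the lymphatic growth factor, by 0.25 (SE 0.07, adjusted p = 0.04915). With the pairs summed, Efnb2 (adjusted p = 0.0974) and Vegfc (adjusted p = 0.221) were no longer called. Of 16 tested genes of slit, netrin and ephrin guidance only the netrin gene Ntn4 was called (-0.51, SE 0.12, adjusted p = 0.02312), and of 6 tested neurotrophic factors and receptors only Ret, the receptor tyrosine kinase of enteric and autonomic neurons, which is also on the neuronal marker list (-0.66, SE 0.15, adjusted p = 0.01698). Neither was called with the pairs summed (adjusted p = 0.186 and 0.116).

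Between the sides, Sema3c was the one member with a difference of the same sign in all pairs. In every one of the 6 pairs of equally numbered left and right libraries it was lower on the left, by 0.133, 0.121 and 0.1 on the log2 scale in wild type and by 0.292, 0.219 and 0.243 in the knockout. In 3.05% of all tested genes the left library was the lower one in all 6 pairs. Without pairs the left and right groups overlapped, and in edgeR the left minus right difference was -0.12 (SE 0.11) in wild type and -0.25 (SE 0.11, adjusted p = 1) in the knockout. With each pair as a block in the fit, the difference in the knockout was -0.25 (SE 0.06, edgeR adjusted p = 0.0331), a change of -16.1%, and that in wild type was -0.12 (SE 0.05, adjusted p = 0.72). The mean of both genotypes, a comparison added after the data were seen, was -0.19 with the block (SE 0.04, adjusted p = 0.011) and -0.19 without it (SE 0.07, adjusted p = 0.8785, beside 0.084% of all tested genes called). With the pair as a random effect in limma-voom, at an estimated correlation of 0.341, Sema3c was called neither in the knockout (adjusted p = 0.527) nor for the mean of both genotypes (adjusted p = 0.246).

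The paired fits called 0.662% of all tested genes in wild type, 0.452% in the knockout and 1.33% for the mean of both genotypes, and of the 5 members 0, 1 and 1. These counts of 63 and 43 genes fell to 25 in wild type without wild-type pair 2 and to 12 in the knockout without knockout pair 3, and over all pairs left out they ranged from 25 to 82 and from 12 to 41. Leaving out a pair ended the call of Sema3c in the knockout in 5 of 6 cases: without wild-type pairs 1, 2 and 3 the adjusted p was 0.0612, 0.0512 and 0.0475, and without knockout pairs 1, 2 and 3 it was 0.211, 0.0884 and 0.187. For the mean of both genotypes the call was lost without wild-type pair 1 (adjusted p = 0.0715) and without knockout pair 1 (0.0681).

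**Figure D3:**
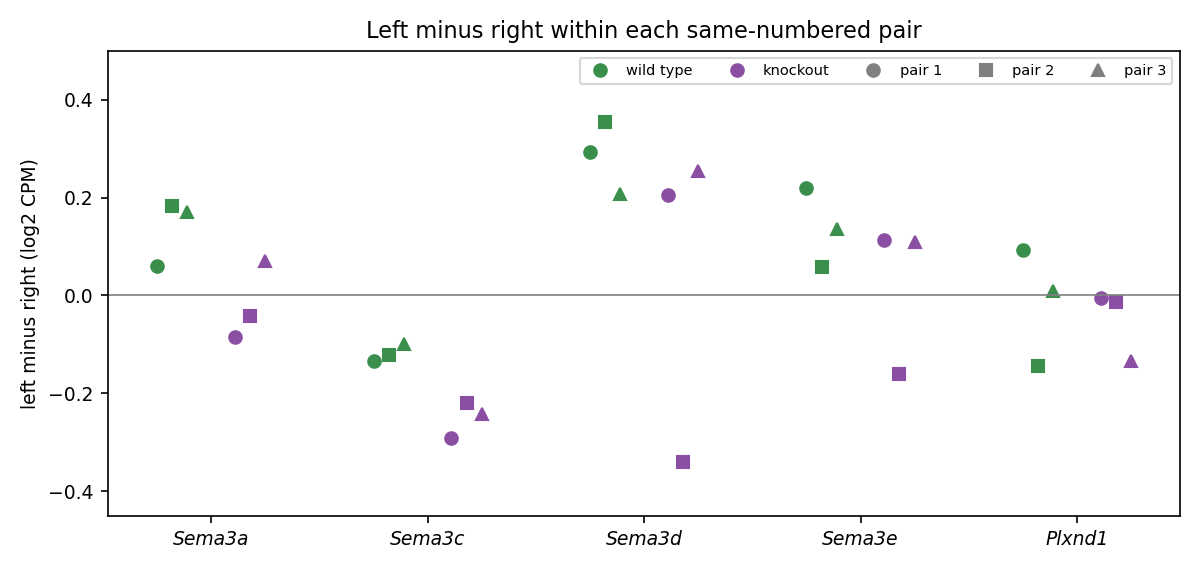
Left minus right difference in log2 CPM for each of the 6 pairs of equally numbered libraries, by genotype, for the 5 genes. All 6 points of Sema3c lie below 0, between -0.292 and -0.1, and Sema3d lies above 0 in all pairs except knockout pair 2 at -0.34.

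Sema3d leaned the other way in wild type, where the 3 left libraries (114.9 to 126.9 CPM) lay above the 3 right ones (91.71 to 103.6 CPM). Its left minus right difference was 0.28 (SE 0.16) without pairs and 0.29 (SE 0.08, edgeR adjusted p = 0.123) with them, and neither passed. In the knockout, pairs 1 and 3 were higher on the left by 0.206 and 0.255, while in pair 2 the difference was -0.34. Without knockout pair 2 the paired fit in edgeR called Sema3d in wild type (adjusted p = 0.00219). The wild-type difference itself hardly changed, at 0.2846 against 0.2851, while its SE went from 0.0775 to 0.05. Both genotypes share 1 estimate of the spread in that fit.

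Sema3a also had wild-type left libraries (284.7 to 301.1 CPM) above the right ones (253.0 to 283.2 CPM). Its difference of 0.14 passed neither without pairs (SE 0.06, edgeR adjusted p = 0.9999) nor with them (SE 0.05, adjusted p = 0.408). Groups that did not overlap in this way were seen for 2 of the 5 genes in wild type and for 8.56% of all tested genes. In the knockout Sema3a differed by -0.02 between the sides. Sema3e differed by 0.14 in wild type (SE 0.18) and by -0.00 in the knockout. The receptor gene Plxnd1 differed by -0.01 in wild type (SE 0.07) and by -0.05 in the knockout, and its left and right groups overlapped in both genotypes.

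Without pairs none of the 5 genes was called between the sides, beside 0.0105% of all tested genes in wild type and 0% in the knockout. Before adjustment, edgeR passed 1 member in wild type (Sema3a) and 1 in the knockout (Sema3c) at 0.05. DESeq2 and limma-voom likewise passed 1 member in each before adjustment, and after it they too called 0 in either. The difference between the genotypes in the effect of side was tested as an interaction, which called 0 of the 5 members and 0% of all tested genes. For Sema3a it was -0.15 (SE 0.08, edgeR adjusted p = 1), so the larger genotype difference of Sema3a in left lungs was not shown to differ from that in right lungs. Before adjustment, 0 of the members passed 0.05 in the interaction by edgeR, DESeq2 or limma-voom without pairs. With pairs in the edgeR fit, Sema3a and Sema3d passed before adjustment and neither was called, beside 0.021% of all tested genes called.

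The other guidance genes tested were 15 for vascular guidance and growth, 16 of slit, netrin and ephrin guidance and 6 neurotrophic factors and receptors. Among them the paired fits called 3 between the sides, beside 0.662% of all tested genes in wild type and 0.452% in the knockout. Whether these 3 calls hold with a pair left out was not tested. Vegfd, a lymphatic growth factor, was higher on the left in wild type, Ackr3, the scavenger receptor for Cxcl12, was higher on the left in the knockout, and Ntrk3, the receptor for neurotrophin 3, was lower on the left in wild type. Without pairs edgeR called none of them, with left minus right differences of 0.65 (SE 0.43), 0.42 (SE 0.21) and -0.94 (SE 0.31) in that order. Ntrk3 was at group means of 3.123 CPM (left) and 6.003 CPM (right) in wild type. No other semaphorin and no other semaphorin receptor was called between the sides in the paired fits.

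Across the 12 libraries the members did not move as a group, as described by correlations of log2 CPM that share libraries and depth. Sema3a and Sema3e had r = 0.615, and 0.171 once the group means were taken out. Sema3c and Sema3d had r = 0.327, and 0.707 within groups. Plxnd1 had r = 0.582 with Sema3e, its direct ligand, and -0.524 with Sema3d. The genes most like each member were sought among 6579 genes with a mean of at least 5 CPM. For Sema3a these were Actr3 (r = 0.94), an actin nucleation subunit, Rap2c (0.934), a small GTPase, and Pf4 (0.93), a chemokine of platelets and macrophages. With the group means taken out these were 0.937, 0.798 and 0.573. For Sema3c they were Corin (0.816), a protease that processes natriuretic peptide, Kcnj8 (0.811), a potassium channel of pericytes, and Csnk2a1 (0.794), a kinase subunit. Adamtsl3 (0.888), Cdkn1c (0.833), a cell cycle inhibitor, and C1qtnf4 (0.827) led for Sema3d. Sema3e was most like Fam114a1 (0.928), Olfml3 (0.919), a secreted matrix protein, and Srgn (0.898), a proteoglycan of secretory granules. Plxnd1 was most like Cdkn2c (0.894), a cell cycle inhibitor, Polg (0.876), the mitochondrial DNA polymerase, and Cobll1 (0.863). For the 12 genes named beside the other 4 members, r within groups was 0.685 to 0.935. Each r is over 12 libraries in 4 groups and carries no test.

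Because the 4 semaphorin genes share a stretch of chromosome 5, the other tested genes between them and within 1 Mb on either side were described too. Of 108 genes in this window 11 were tested, 7 of them not semaphorins, and of these 7 genes 3 fell and 0 rose in the knockout (median -0.23). In this comparison 3.62% of all tested genes were called as lower. Gnai1, an inhibitory G protein subunit, fell by 0.33 (SE 0.05, edgeR adjusted p = 0.0007435). Cacna2d1, a calcium channel subunit, fell by 0.23 (SE 0.06, adjusted p = 0.02743), and was not called with the pairs summed (adjusted p = 0.171). Gm43719, an unnamed transcript that starts 1470 bases beyond the end of Sema3a on the same strand, fell by 0.41 (SE 0.09, adjusted p = 0.0124). It followed Sema3a over the 12 libraries with r = 0.825, and whether its reads belong to a longer Sema3a transcript was not tested. Sema3c and Sema3d lie in the same stretch and did not pass.

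**Figure D4:**
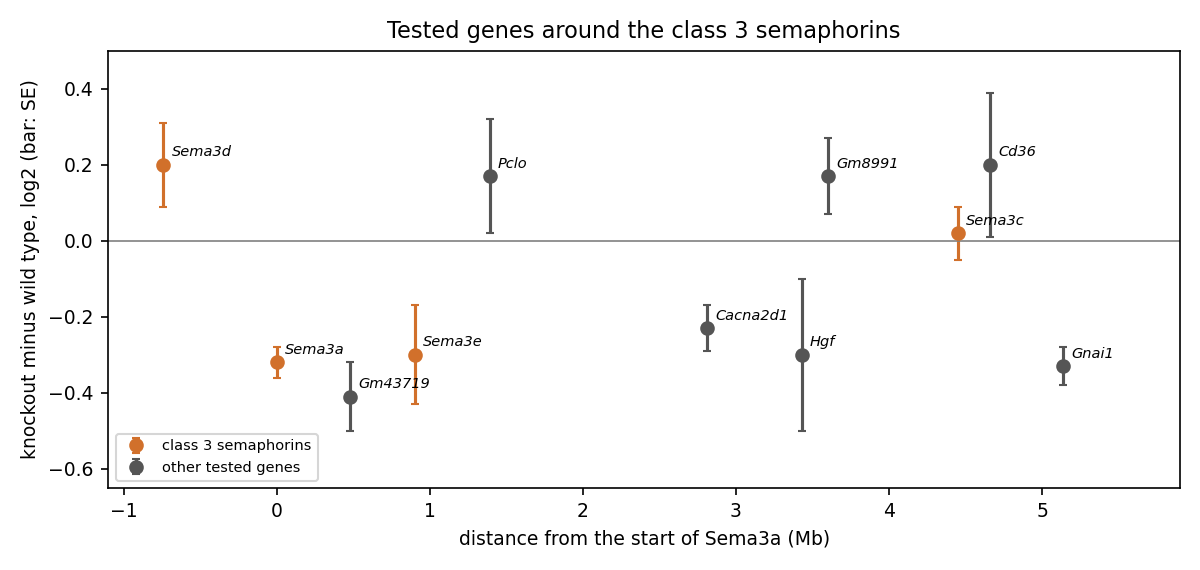
Log2 fold change, knockout minus wild type (mean of both sides, with SE), of the 11 tested genes on the chromosome 5 stretch, against distance from the start of Sema3a in Mb. Sema3a at -0.32, Gm43719 at -0.41, Cacna2d1 at -0.23 and Gnai1 at -0.33 were called, and the others were not.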

How the data were processed

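The authors deposited 1 table of raw read counts for all genes and libraries. The submitters' processing notes name FastQC, HISAT2, featureCounts and the build GRCm38. Tool versions and whether strand was used in counting: not given in the sources used here, so reads of overlapping genes on opposite strands cannot be told apart. The table analysed spans chromosomes 1 to 7, 10, X and a stretch of 8, with 31078 genes (1 incomplete row was left out), so library totals are part of the depth, and other genes were not analysed here. Symbols were matched by identifier for 30915 genes (99.5%).

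Genes were filtered with filterByExpr (minimum count 10, minimum total 15), libraries were scaled by TMM (0.992 to 1.01), and 9519 genes were tested by the quasi-likelihood method of edgeR 4.0.16 under R 4.3.3, with 12 libraries in 4 groups and 8 residual degrees of freedom. P-values were adjusted over all tested genes (Benjamini-Hochberg, threshold 0.05). Alternatives used DESeq2 1.42.0 and limma 3.58.1 (voom). Fold changes are log2 values with the SE of the test, and correlations use log2 CPM with a prior count of 2. CPM per kb divides by the exon length given in the table. The edgeR fit without pairs was tested on simulated counts of independent libraries. Fits with pairs or summed pairs, and changes as small as those of the members, were not simulated.

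To check pairing, each library's deviation from its group mean was compared. Left and right libraries that share a number correlated at 0.253 to 0.486 within a genotype (6 pairs), against -0.393 to -0.00284 for different numbers. Deviations within a group cancel out, so the values for different numbers are not independent of those for the same number. Across genotypes, same-numbered libraries gave -0.121 to -0.0416, so numbers were treated as pairing the sides in each genotype, from the data and not from the labels. Members and lists were chosen with earlier results of these data known. The 5 members were named in every comparison, with called genes of each list (or the 2 smallest p-values), the 3 genes most like each member and called genes of the chromosome 5 window. Pdk1 was named after its values were seen.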

Additional observations from a re-analysis of the deposited data

How the results depend on the processing

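Under 41 alternatives for the 5 members, 945 of 1020 log2 differences kept their direction and their side of the threshold. Sema3a kept its call over both sides in 29 of 32 alternatives (-0.3565 to -0.296) and in left lungs in 20 of 21, and gained one in right lungs in 5 of 21. The calls lost over both sides were all in edgeR fits of summed pairs with 1 pair left out (adjusted p = 0.071, 0.094 and 0.0569). Apart from the summed fits and the random effect, the alternatives over both sides took the left and right libraries of a number as independent. For knockout against wild type over both sides, in left and in right lungs, the members called were 3, 2 and 2 with no filter on low counts (which added Sema3e and Sema3d). In right lungs 1 was called with DESeq2 and 1 with the replicate block as a random effect. The replicate block of numbers shared across genotypes, which do not pair, gave 0 in left lungs. The replicate block of pairs within a genotype gave 1 between the sides in the knockout and 1 for the mean of both genotypes, and changed no other call of a member. Leaving out libraries or pairs gave 0 to 2 members over both sides, 0 to 1 in right lungs, 0 to 1 between the sides in each genotype and 0 to 2 for the mean of both genotypes. Directions turned in 50 cases, none of a called difference. In leave-outs they turned for Sema3a (-0.0712 to 0.0274 between the sides in the knockout), Sema3c (-0.0854 to 0.0927 over both sides, -0.1397 to 0.017 in left and -0.031 to 0.1619 in right lungs), Sema3d (-0.1423 to 0.2628 in left lungs, -0.1672 to 0.2378 between the sides in the knockout), Sema3e (-0.1671 to 0.2748 between the sides in the knockout, -0.0123 to 0.2086 for their mean over both genotypes, -0.3097 to 0.1323 in the interaction) and Plxnd1 (-0.0796 to 0.0144 over both sides, -0.0459 to 0.0426 in right lungs, -0.0639 to 0.0609 between the sides in wild type, -0.0593 to 0.0052 for their mean over both genotypes, -0.1114 to 0.0137 in the interaction). Sema3e between the sides in the knockout also turned with limma-voom (0.0208), the replicate block of pairs (0.0088) and the random effect (0.0207). Genes called in all, 543 over both sides, 112 in left and 144 in right lungs, were 1084, 510 and 595 with no filter, 139 over both sides with pairs summed, 344 over both sides with the random effect, 193 and 221 in left and right lungs with DESeq2, 49 in left lungs with only the groups compared, and 24 and 74 in left and right lungs with the block of numbers. Leaving out libraries or pairs gave 27 to 636, 45 to 137 and 68 to 175. Between the sides, 1 gene in wild type, 0 in the knockout and 0 in the interaction became 46, 31 and 6 with no filter, 63, 43 and 2 with pairs as a block, 11 and 4 (sides only) with DESeq2 and 13 and 2 (sides only) with the random effect. In wild type 8 were called with only the groups compared. Leaving out libraries or pairs, paired fits included, gave 0 to 82 in wild type, 0 to 41 in the knockout and 0 to 4 in the interaction. The cause of these changes was not tested.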

Other observations

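The makeup of the class 3 pool, as shares of the summed CPM per kb of the 4 semaphorins, gave a further description. In wild type Sema3a held 39.6% ± 1.77 of it on the left (SD, n = 3 libraries) and 38.8% ± 0.765 on the right, and in the knockout 34.0% ± 4.17 on the left and 33.1% ± 3.08 on the right. For Sema3d the shares were 26.0% ± 0.173 (left) and 23.1% ± 1.19 (right) in wild type, and 30.9% ± 6.19 (left) and 28.6% ± 2.74 (right) in the knockout. Sema3c held 22.4% ± 0.594 on the left and 26.3% ± 0.676 on the right in wild type, and its knockout shares were 24.5% ± 1.77 on the left and 28.1% ± 2.06 on the right. Summed, the 4 genes had 53.6 ± 2.78 CPM per kb (left) and 49.6 ± 3.19 CPM per kb (right) in wild type, and 47.5 ± 3.89 CPM per kb (left) and 49.2 ± 3.89 CPM per kb (right) in the knockout. These shares are tied to each other and were not tested.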
